A study of Mus musculus with 23 samples.

Results

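The genes described here are 10 members of the JAK-STAT pathway of cytokine signalling and its outputs, listed by name and not by their values. They comprise 3 cytokine receptor chains (Il10ra, Il21r and Il4ra), 3 signal transducers (Stat3, Stat5a and Stat6), 2 feedback inhibitors (Socs1 and Socs3) and 2 survival kinases (Pim1 and Pim2). They are 10 of the 18217 genes with a named probe on the array, and all 10 were among the 13743 genes tested, with 14 probes that were well above background in all 22 samples.

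RNA was hybridised to 23 one-colour arrays of 22 samples from mice of a C57BL/6 x 129 background, all of which lacked Cd3e, which T cells need for antigen receptor signalling. The 9 lymphoma lines (10 arrays) were Atm knockout, of sex not determined, were established from spleens with B cell tumours and were kept in suspension culture. The 6 KO spleens came from female Atm knockout mice without tumours. The 7 WT spleens came from Atm wild-type mice, 4 male and 3 female. Atm encodes the kinase that responds to DNA double-strand breaks. Ages were not given in the sources used here, and nothing states whether each line came from a different mouse, so that p-values describe the spread between these samples.

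A cytokine that binds its receptor activates the JAK kinases attached to it, which phosphorylate STAT proteins, and the STAT dimers then enter the nucleus and switch on genes. Interleukin-10 and interleukin-21 signal mainly through STAT3, and interleukin-4 through STAT6, which in B cells drives class switching. Among the genes that STATs induce are the SOCS inhibitors, which shut the receptor complex off, and the PIM kinases, which need no further activation and promote survival of lymphocytes.

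Levels are log2 of the processed signal relative to the 75th percentile of the same array, so that a level of 0 is the signal of that percentile, and a difference of 1 is a 2-fold change. Differences between groups compare a probe only with itself. The summed marker levels below add different probes, so that the brightest weigh most. The 75th percentile of the signal was 491 to 788 units in the lines, 668 to 896 in KO spleens and 570 to 832 in WT spleens, and the share of spots well above background was 54.9% to 62.3% in the lines, 62.6% to 67.7% in KO spleens and 61.7% to 66.9% in WT spleens. Atm averaged -3.33 in the lines, -2.39 in KO spleens and -0.19 in WT spleens. All 9 B cell markers were well above background in all lines. The log2 of their summed levels was 9.41 to 10.26 in the lines, 9.46 to 9.93 in KO spleens and 9.49 to 10.05 in WT spleens. Of the 9, 3 were called higher and 1 lower in the lines than in KO spleens, and 2 higher and 2 lower than in WT spleens. All 9 macrophage, all 8 neutrophil and all 7 NK cell markers tested were lower in the lines than in KO spleens. Elane, Mmp8 and Eomes were well above background in no line, while 4 macrophage, 1 neutrophil and 1 NK cell marker were so in all lines. Of the 7 T cell markers tested 4 were lower and 2 higher in the lines than in KO spleens. The log2 of their summed levels was 1.09 to 4.88 in the lines and 3.67 to 4.23 in KO spleens. The part of these other spleen cells in the members' differences was not tested. In whole spleens, fewer cells of a type and less RNA per cell cannot be told apart, and between lines and spleens tumour, culture and cell composition cannot be told apart.

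The submitters count 10 lines, but a title marks 1 of the 10 arrays as a repeat of line 8. The 2 arrays of line 8 were no more alike than arrays of different lines. Their correlation over tested genes was 0.969, which ranked 10 among the 45 pairs of lymphoma arrays. Lines 4 and 5, on the same slide, reached 0.985, while lines 7 and 9, on another shared slide, had 0.961. With each gene's mean over the lymphoma arrays taken off, r was 0.651 for lines 4 and 5. No other pair was above 0.0741 (lines 6 and 7). Whether lines 4 and 5 are independent was not tested. Socs3 was -0.17 on the repeat array of line 8 and -2.24 on its first array. Pim2 was 4.73 on the repeat and 2.86 on the first array, and Stat6 was 2.39 on the repeat and 1.65 on the first. Whether the 2 arrays of line 8 are 1 line was not tested. The mean of the 2 arrays was used, and the counts of members called between lines and spleens stayed at 9 and 7 with either array alone.

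Relative to KO spleens the lymphoma lines had much more Pim2, less Pim1, Il4ra, Il10ra, Stat6 and Socs3, and somewhat more Stat3, Stat5a and Il21r. Of the 10 members, 4 were called higher and 5 lower at an adjusted p below 0.05, and Socs1 was not called. These shares stood against a background of 41.5% of all genes called higher and 28.9% called lower. By the representative (brightest) probe of each gene, every line lay above every KO spleen in 1 member (Pim2), against 24.1% of all genes. In 3 members (Il4ra, Stat6 and Socs3) every line lay below every KO spleen by that probe, against 16.8%. The median difference of the members was 0.0076, and that of all genes tested was 0.18. With arrays centred on their medians 5 members were called higher and 4 lower, and with quantile normalisation 1 higher and 5 lower. Of the 13743 genes, 11040 were called with median centring, 76.4% of them higher. With quantile normalisation 9681 were called, 56.3% of them higher.

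Relative to WT spleens 2 members were called higher (Stat3 and Pim2), against 40.4% of all genes, and 5 lower (Il10ra, Il4ra, Stat6, Socs3 and Pim1), against 30.9%. By the representative probe Pim2 was again the 1 member with every line above every spleen, against 23.9% of all genes. Il10ra, Il4ra and Stat6 were the 3 with every line below by that probe, against 17.9%. The median was -0.22 for the members and 0.14 for all genes. The split of members changed with the processing. It was 5 higher and 3 lower with arrays centred on their medians, where 11016 of all genes were called, 75.1% of them higher. It was 4 higher and 5 lower with the slide as a block (10025 genes called, 57.0% of them higher). With quantile normalisation it was 1 higher and 5 lower (10083 genes called, 54.5% of them higher). The same 9 lines enter both comparisons, so the 2 comparisons are not independent.

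**Figure D1:**
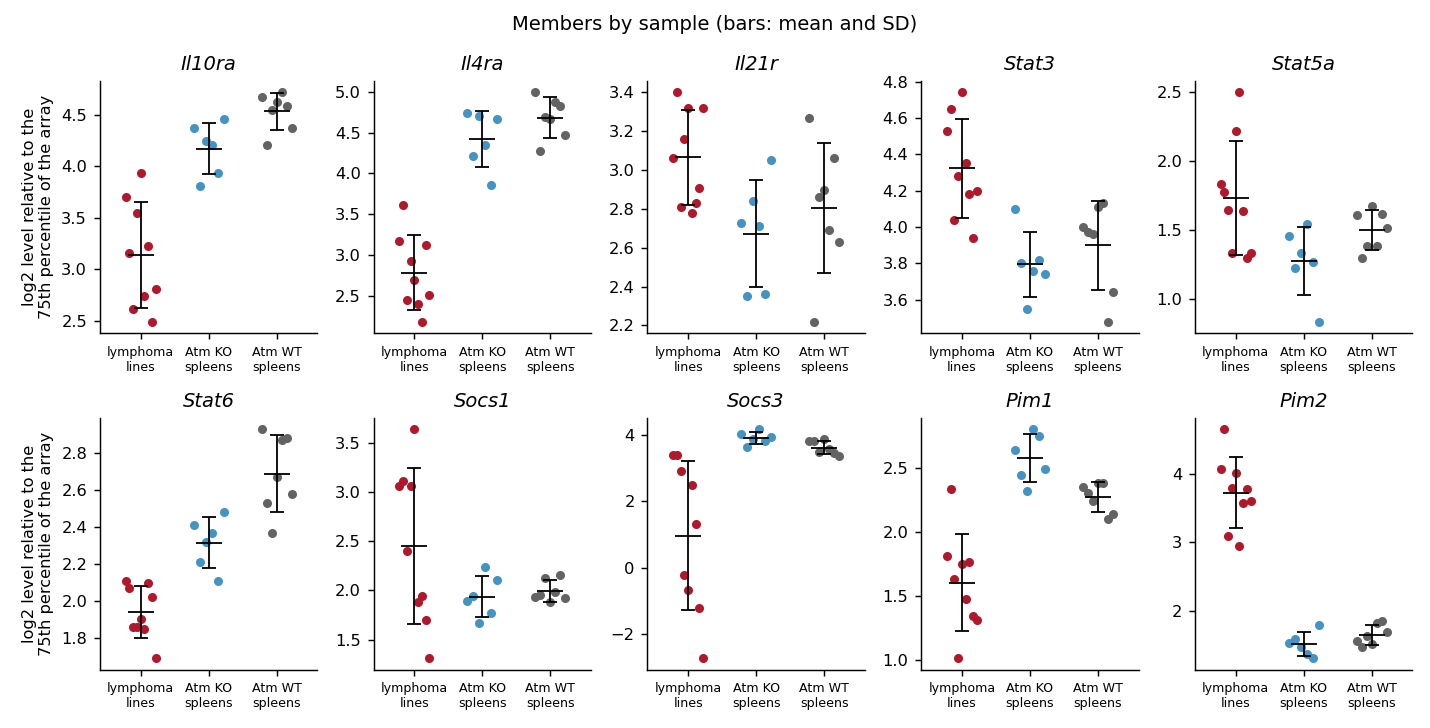
Log2 level of the representative probe of each of the 10 members (y axis, relative to the 75th percentile of the array) in the 9 lymphoma lines, 6 Atm KO spleens and 7 Atm WT spleens, with points for samples and bars for mean and SD. Pim2 of all 9 lines lies above all spleens, Il4ra of all lines lies below all spleens, and Socs3 spreads from -2.73 to 3.38 among the lines.

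Among the 3 member receptors, Il4ra, the chain that binds interleukin-4, differed most. It was 2.19 at the lowest, 2.70 at the median and 3.61 at the highest in the lines, against 3.86, 4.51 and 4.74 in KO spleens and 4.27, 4.69 and 4.99 in WT spleens. The lines did not overlap with either group of spleens. The difference was -1.63 ± 0.19 (SE) against KO spleens, or 3.10-fold lower (adjusted p = 1.43e-07), and -1.89 ± 0.18 against WT spleens (adjusted p = 6.25e-09). On each of the 5 slides that held lines and spleens Il4ra was lower in the lines, by differences between -1.90 and -0.85 against KO spleens.

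Il10ra, the ligand-binding chain of the interleukin-10 receptor, was 2.49, 3.16 and 3.94 (lowest, median and highest) in the lines, against 3.81, 4.23 and 4.46 in KO spleens and 4.21, 4.59 and 4.72 in WT spleens. Only line 5 reached the range of the KO spleens, and no line reached that of the WT spleens. Il10ra was 2.05-fold lower in the lines than in KO spleens (-1.03 ± 0.19, adjusted p = 5.79e-05) and 2.63-fold lower than in WT spleens (-1.40 ± 0.18, adjusted p = 5.82e-07). With arrays centred on their medians it was -0.45 against KO spleens (adjusted p = 0.0427) and -0.83 against WT spleens (adjusted p = 0.000419). Its partner chain Il10rb differed by 0.12 ± 0.16 from KO spleens (adjusted p = 0.544) and by -0.08 ± 0.16 from WT spleens (adjusted p = 0.681). The direction of Il10rb against KO spleens turned with the scaling, to 0.70 with each array centred on its median (adjusted p = 0.00156) and to -0.30 with quantile normalisation.

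The ligand moved the other way. Il10 was 0.86, 2.74 and 4.48 (lowest, median and highest) in the lines, against -0.55, -0.03 and 0.20 in KO spleens and -2.50, -1.82 and -1.18 in WT spleens, with no overlap between any of the groups. It was 7.90-fold higher in the lines than in KO spleens (2.98 ± 0.38, adjusted p = 4.24e-07), and 24.9-fold higher than in WT spleens.

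Il21r, the receptor of the T helper cytokine interleukin-21, was 2.78, 3.06 and 3.40 in the lines, 2.35, 2.72 and 3.05 in KO spleens and 2.22, 2.86 and 3.27 in WT spleens. All 3 groups overlapped. The difference of 0.39 ± 0.15 against KO spleens was called (adjusted p = 0.0248), but the call was lost with quantile normalisation (0.10, adjusted p = 0.557), with normexp background correction (0.33, adjusted p = 0.195) and with the slide as a block (0.36, adjusted p = 0.0598). It was also lost, at 0.33, without KO spleen 2 (adjusted p = 0.0718) or KO spleen 5 (adjusted p = 0.0693). The difference of 0.26 ± 0.14 against WT spleens was not (adjusted p = 0.108), though it was 0.34 and called without WT spleen 1 (adjusted p = 0.0401). Il21r is the next gene to Il4ra on chromosome 7, with 0 protein-coding genes between them in the RefSeq order, and Il4ra was lower in the lines while Il21r was not.

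Among the transducers, Stat3 was higher and Stat6 lower in the lines. Stat3, the main STAT of interleukin-10, interleukin-6 and interleukin-21 signals, was 3.94, 4.28 and 4.74 (lowest, median and highest) in the lines, against 3.55, 3.78 and 4.10 in KO spleens and 3.48, 3.97 and 4.13 in WT spleens. Of the 9 lines, 7 lay above all KO spleens and 7 above all WT spleens. The difference was 0.53 ± 0.13 against KO spleens (adjusted p = 0.00106) and 0.42 ± 0.12 against WT spleens (adjusted p = 0.00452). With quantile normalisation it was 0.10 (adjusted p = 0.463) and -0.0044 (adjusted p = 0.976), neither of which was called. With normexp background correction the Stat3 difference against KO spleens was 0.42 and also not called (adjusted p = 0.0878).

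Stat6, the STAT of interleukin-4 signals, had the narrowest spread of the members among the lines by its representative probe. The SD was 0.14, and only 1.81% of all tested genes had a smaller one. That SD takes line 8 as the mean of its 2 arrays, which differed by 0.75, more than the range of 0.42 over the 9 lines. The other Stat6 probes had SDs of 0.17 and 0.48 among the lines, where the median SD of all tested genes was 0.44. The level of Stat6 was 1.69, 1.90 and 2.11 in the lines, against 2.11, 2.34 and 2.48 in KO spleens and 2.37, 2.67 and 2.93 in WT spleens. The highest line lay just below the lowest KO spleen, although the repeat array of line 8 alone (2.39) lay among the KO spleens. The difference was -0.38 ± 0.10 against KO spleens (adjusted p = 0.00152) and -0.75 ± 0.09 against WT spleens (adjusted p = 2.37e-07). All 3 Stat6 probes ran the same way, at -0.27, -0.38 and -0.75 against KO spleens. The lines overlapped with KO spleens at the probes of -0.27 and -0.75. There the highest lines were 0.75 and -3.03, and the lowest KO spleens 0.65 and -3.72. At the probe of -0.75 the lines also overlapped with WT spleens, the lowest of which was -3.08. With arrays centred on their medians the difference of the representative probe was 0.21 against KO spleens (adjusted p = 0.104). It was -0.18 against WT spleens (adjusted p = 0.139), and neither was called.

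Stat5a, which carries signals of interleukin-2 family cytokines, was 1.30, 1.65 and 2.50 in the lines, 0.84, 1.30 and 1.55 in KO spleens and 1.30, 1.52 and 1.68 in WT spleens. The groups overlapped, and lines 5 and 6 stood highest at 2.22 and 2.50. The difference of 0.45 ± 0.16 against KO spleens was called (adjusted p = 0.0164). The call was lost with quantile normalisation (0.25, adjusted p = 0.154), with normexp background correction (0.39, adjusted p = 0.0693) and without KO spleen 6 (0.36, adjusted p = 0.0552). Against WT spleens it was 0.23 ± 0.15 (adjusted p = 0.184), and 0.41 and called with the slide as a block (adjusted p = 0.026). Stat5b, its close relative and neighbour on chromosome 11, was lower in the lines, by -0.79 ± 0.09 against KO spleens (adjusted p = 1.94e-07), but by -0.20 with arrays centred on their medians (adjusted p = 0.126).

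**Figure D2:**
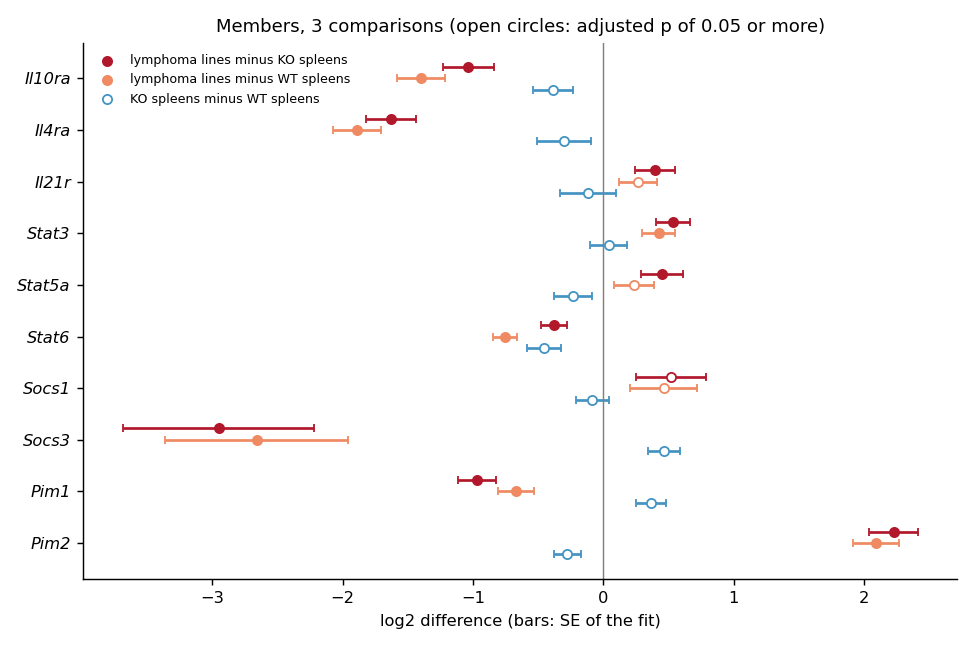
Log2 difference (x axis, bars for the SE of the fit) of each member for lymphoma lines minus KO spleens, lymphoma lines minus WT spleens and KO spleens minus WT spleens, with open circles for an adjusted p of 0.05 or more. Socs3 has the lowest values, -2.95 and -2.66, and the widest bars, Pim2 has the highest, 2.22 and 2.09, and the genotype differences of the spleens are all open circles.

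The 2 SOCS inhibitors varied most among the lines. The promoters of both, and of Pim2 and Il4ra, are printed here. Pim2 and Il4ra separated all lines from all spleens. So did the representative probe of Stat6, but not its other probes against KO spleens, and the Stat6 promoter is not printed. Each printed promoter is the 250 bases before the RefSeq transcript start of GRCm38.p6, read 5′ to 3′ on the gene's strand. Socs3 lies at chr11:117969367-117969616 (minus strand), Socs1 at chr16:10785537-10785786 (minus), Pim2 at chrX:7878056-7878305 (plus) and Il4ra at chr7:125552021-125552270 (plus). Capitals mark TTCNNNGAA, the spaced palindrome that STAT dimers bind, and the octamer ATGCAAAT of POU factors, here on either strand.
Socs3: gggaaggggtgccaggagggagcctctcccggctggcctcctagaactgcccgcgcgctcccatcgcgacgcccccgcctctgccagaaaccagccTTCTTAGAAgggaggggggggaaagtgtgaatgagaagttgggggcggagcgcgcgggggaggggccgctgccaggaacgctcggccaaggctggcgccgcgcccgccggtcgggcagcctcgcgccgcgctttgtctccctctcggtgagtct
Socs1: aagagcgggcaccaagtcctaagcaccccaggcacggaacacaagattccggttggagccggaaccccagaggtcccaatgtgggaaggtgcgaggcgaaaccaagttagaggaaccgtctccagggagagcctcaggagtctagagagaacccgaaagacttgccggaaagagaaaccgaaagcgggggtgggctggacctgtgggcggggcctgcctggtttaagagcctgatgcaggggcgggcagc
Pim2: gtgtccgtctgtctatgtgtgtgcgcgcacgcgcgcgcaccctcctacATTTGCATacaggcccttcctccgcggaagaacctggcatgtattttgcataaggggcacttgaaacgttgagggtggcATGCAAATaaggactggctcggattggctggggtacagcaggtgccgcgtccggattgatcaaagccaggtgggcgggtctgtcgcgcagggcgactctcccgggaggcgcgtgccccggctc
Il4ra: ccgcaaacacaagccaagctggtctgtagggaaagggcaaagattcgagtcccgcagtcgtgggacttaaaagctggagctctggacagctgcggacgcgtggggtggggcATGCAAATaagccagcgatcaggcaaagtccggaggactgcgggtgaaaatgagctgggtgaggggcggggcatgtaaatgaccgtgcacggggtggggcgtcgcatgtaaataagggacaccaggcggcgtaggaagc

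Windows of 300 bases (250 before and 50 after the start) were searched on both strands for 9 members, since the table held none for Il10ra. These 9 genes had 11 promoters. TTCNNNGAA was found in 1 of the 11, that of Socs3, at position -154 from the start, and in 8.30% of all 32851 promoters. The variant TTCNNNNGAA, preferred by STAT6, was found in 0 of the 11 and in 6.95% of all promoters. The octamer, searched after the sequences were seen, was found in 2 of the 11 and in 1.74% of all promoters. It lay in Il4ra at -139 and in Pim2 at -202 (on the other strand) and -123, while Stat6 had 0. A match of letters is a description and not a site of binding.

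Socs3, the inhibitor that acts on the receptors of the interleukin-6 family, spread over 6.11 log2 units among the lines. Its level was 3.38, 3.37, 2.90 and 2.48 in lines 1, 2, 3 and 6, it was 1.30 in line 7, and it was -0.23, -0.69, -1.21 and -2.73 in lines 4, 5, 8 and 9. It was 3.62, 3.89 and 4.16 (lowest, median and highest) in KO spleens and 3.34, 3.55 and 3.85 in WT spleens. Lines 1 and 2 lay within the range of the WT spleens, and all 9 lines lay below the KO spleens.

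The SD of Socs3 was 2.25 in the lines, against 0.18 in KO spleens and 0.21 in WT spleens, and 98.1% of all tested genes varied less among the lines. The mean difference was -2.95 ± 0.73 against KO spleens, or 7.73-fold (adjusted p = 0.00117), and -2.66 ± 0.70 against WT spleens (adjusted p = 0.00187), a mean over lines with little change and lines with a large one. With the slide as a block it was smaller, -1.76 against KO spleens (adjusted p = 0.0187) and -1.43 against WT spleens (adjusted p = 0.0433), and without the 3 lines of the slide that held no spleen it was -2.03 and -1.74 (adjusted p = 0.00364 and 0.00812). It was -2.49 against KO spleens without line 9 and -2.68 without line 8. Within slides the difference against KO spleens was between -4.38 and -0.38, below 0 on all 5.

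Socs1, the inhibitor of interferon and interleukin-4 receptors, also differed from line to line. It was 3.06, 3.11, 3.06 and 3.64 in lines 1, 2, 4 and 5 and 2.40 in line 3, while lines 6, 7, 8 and 9 had 1.88, 1.94, 1.70 and 1.31. It was 1.67, 1.91 and 2.24 (lowest, median and highest) in KO spleens and 1.88, 1.95 and 2.16 in WT spleens. Lines 1 to 5 lay above all spleens, and line 9 lay below them all.

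The Socs1 difference of 0.52 ± 0.27 against KO spleens (adjusted p = 0.0910) and of 0.46 ± 0.26 against WT spleens (adjusted p = 0.114) was not called. Lines 7, 8 and 9 were the lines of the slide that held no spleen. With the slide as a block the difference was 0.86 against KO spleens (adjusted p = 0.000509) and 0.81 against WT spleens (adjusted p = 0.000648), and without those 3 lines it was 0.92 and 0.87 (adjusted p = 0.00064 and 0.000784). For these lines slide and line cannot be told apart. Without line 9 alone it was 0.66 (adjusted p = 0.0195) against KO spleens, and without line 8 alone 0.61 (adjusted p = 0.0455).

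The PIM kinases moved in opposite directions. Pim2 was 2.95, 3.79 and 4.66 (lowest, median and highest) in the lines, against 1.30, 1.50 and 1.79 in KO spleens and 1.46, 1.62 and 1.85 in WT spleens. The lowest line stood more than 1 log2 unit above the highest spleen. Pim2 was 4.67-fold higher in the lines than in KO spleens (2.22 ± 0.18, adjusted p = 6.29e-10) and 4.25-fold higher than in WT spleens (2.09 ± 0.18, adjusted p = 7.05e-10), and its 3 probes gave 2.17, 2.33 and 2.22 against KO spleens. Within slides the difference from KO spleens was 1.64 to 3.13, on all 5 slides above 0.

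Pim1 was 1.01, 1.63 and 2.33 in the lines, against 2.32, 2.56 and 2.80 in KO spleens and 2.10, 2.30 and 2.38 in WT spleens. Line 2 alone reached the range of the spleens, and the other 8 lines lay below all of them. The difference was -0.97 ± 0.15 against KO spleens (adjusted p = 3.99e-06) and -0.67 ± 0.14 against WT spleens (adjusted p = 0.000187). With arrays centred on their medians it was -0.38 (adjusted p = 0.026) and -0.10 (adjusted p = 0.543), and on the slide of line 2 it was 0.03 against WT spleens.

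Pim3, the remaining kinase of the family, was -0.13, 0.12 and 0.34 (lowest, median and highest) in the lines, against 2.03, 2.33 and 2.69 in KO spleens and 1.79, 2.21 and 2.43 in WT spleens. The lines did not overlap with the spleens and varied little among themselves (SD 0.16). Pim3 was 4.64-fold lower in the lines than in KO spleens (-2.21 ± 0.11, adjusted p = 2.11e-13), and -1.63 with arrays centred on their medians.

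**Figure D3:**
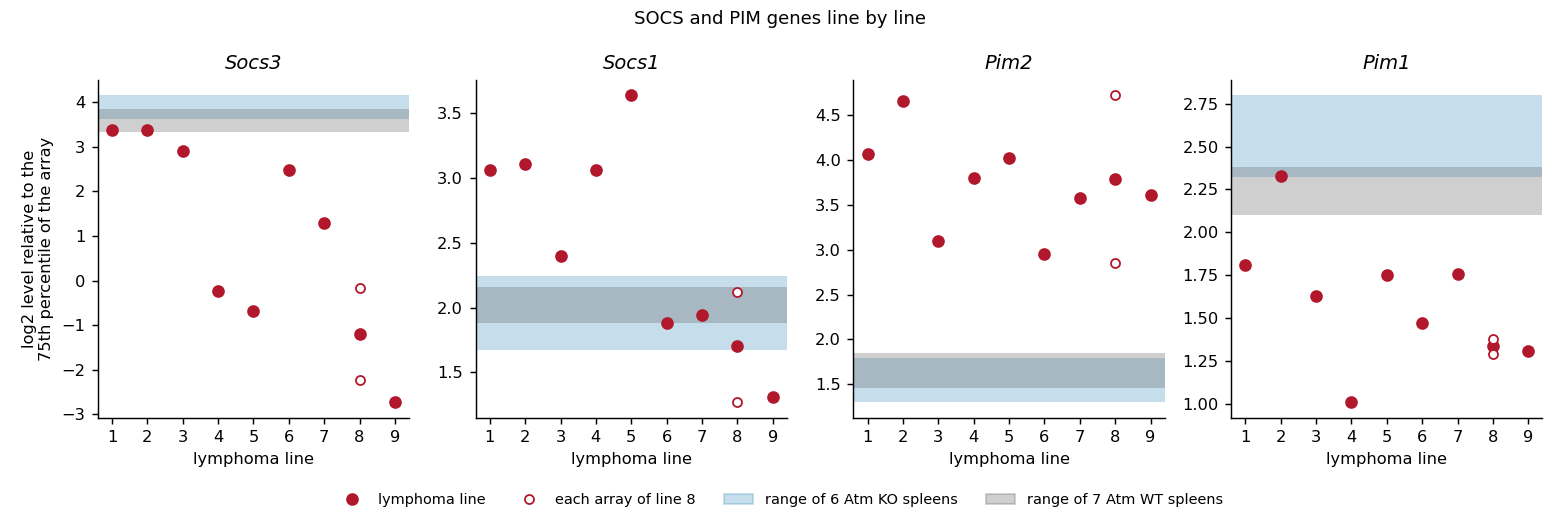
Log2 level (y axis, relative to the 75th percentile of the array) of Socs3, Socs1, Pim2 and Pim1 in each of the 9 lymphoma lines (x axis), with open circles for each of the 2 arrays of line 8 and bands for the ranges of the 6 Atm KO spleens and 7 Atm WT spleens. Socs3 is within the WT band in lines 1 and 2, under both bands in line 3 and far below in lines 4, 5, 8 and 9. Socs1 is above the bands in lines 1 to 5, and Pim2 is above them in every line.

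Between the spleens the members differed by up to 0.46 in either direction, a size at which Stat5a (0.45) was called between lines and KO spleens. None of the 10 was called between KO and WT spleens (0 by limma with a term for sex). By the same fit 5 had an unadjusted p below 0.05. The share of all genes at that unadjusted level is not given here, so no excess is read from the 5. Of all genes 1.66% were called higher and 2.16% lower in KO spleens, 525 genes in all. That count was 122 without WT spleen 6 and 778 without KO spleen 6. The largest differences were Stat6 at -0.46 ± 0.13 (adjusted p = 0.0727), Socs3 at 0.46 ± 0.12 (adjusted p = 0.0589), Il10ra at -0.39 ± 0.16 (adjusted p = 0.189) and Pim1 at 0.36 ± 0.11 (adjusted p = 0.105). Stat6 and Il10ra were lower and Pim1 higher in KO spleens on all 5 slides. Stat6 was called without a term for sex (adjusted p = 0.0353) or without WT spleen 1 (adjusted p = 0.0486), Socs3 with quantile normalisation (0.52, adjusted p = 0.0306) or without KO spleen 2 (adjusted p = 0.0387), and Pim1 without a term for sex (adjusted p = 0.0495). Il10ra lies on chromosome 9, as Atm does, with 75 protein-coding genes between them.

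Across the 9 lines, the level of Il10ra was set against that of the 9 other members, Il10 and Il10rb, which gave 11 relations. None passed adjustment (0 by exact permutation with the Benjamini-Hochberg method, 3 at an unadjusted p below 0.05). Socs1 had the highest r, at r = 0.809 (exact p = 0.0125, adjusted 0.0974) and rho = 0.700 (exact p = 0.0433, adjusted 0.216), and Stat3 the next, at r = 0.771 (exact p = 0.0177, adjusted 0.0974) and rho = 0.733 (exact p = 0.0311, adjusted 0.216). Il10rb had r = 0.686 (exact p = 0.0410, adjusted 0.150) and rho = 0.667 (exact p = 0.0589). The tests were two-sided.

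Without lines 5 and 8, the farthest from the median of Il10ra, r was 0.667 for Socs1 (exact p = 0.114), 0.521 for Stat3 (exact p = 0.232) and 0.407 for Il10rb (exact p = 0.402), none of them below an unadjusted p of 0.05. Over the 6 lines off the slide without spleens it was 0.878 for Socs1 (exact p = 0.0194) and 0.698 for Stat3 (exact p = 0.126). With lines 4 and 5 averaged it was 0.754 and 0.757. The level of Il10ra also ran with the 75th percentile of the array, to which levels were scaled, at r = -0.819 (exact p = 0.0046). With its log2, Il10rb had r = -0.762 (exact p = 0.0174), Stat3 had -0.672 (exact p = 0.0438) and Socs1 had -0.596 (exact p = 0.0854). Without any scaling the relation to Il10ra had r = 0.746 for Socs1 (exact p = 0.0279, adjusted 0.307), 0.346 for Stat3 (exact p = 0.415) and 0.364 for Il10rb (exact p = 0.365).

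The other relations were weaker, from r = 0.523 for Pim2 (exact p = 0.149) and 0.493 for Il21r (exact p = 0.172) to 0.260 for Stat5a, 0.260 for Stat6, 0.215 for Pim1, 0.194 for Il4ra, 0.071 for Socs3 and 0.028 for Il10. Some of these moved widely: r of Il21r was -0.044 without scaling, r of Stat5a was between -0.000157 and 0.671 with a line left out, and without lines 5 and 8 r was -0.239 for Stat5a, 0.595 for Stat6 and 0.520 for Il4ra. For Socs3, lines 1 and 5 had the highest Il10ra (3.70 and 3.94) and Socs3 levels of 3.38 and -0.69. Il10 was 4.48 in line 2 and 0.86 in line 7, which had Il10ra levels of 3.16 and 3.23. With 9 lines, relations of moderate size were not detectable. With Il10rb in place of Il10ra none passed adjustment either.

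The tested genes whose pattern over the 9 lines was most like that of Il10ra were Dmac2 (r = 0.968), Tmem205 (0.955), Rps14 (0.948), Naca (0.945) and H2-Oa (0.943), given as a description. A total of 49 genes reached an r of 0.9.

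**Figure D4:**
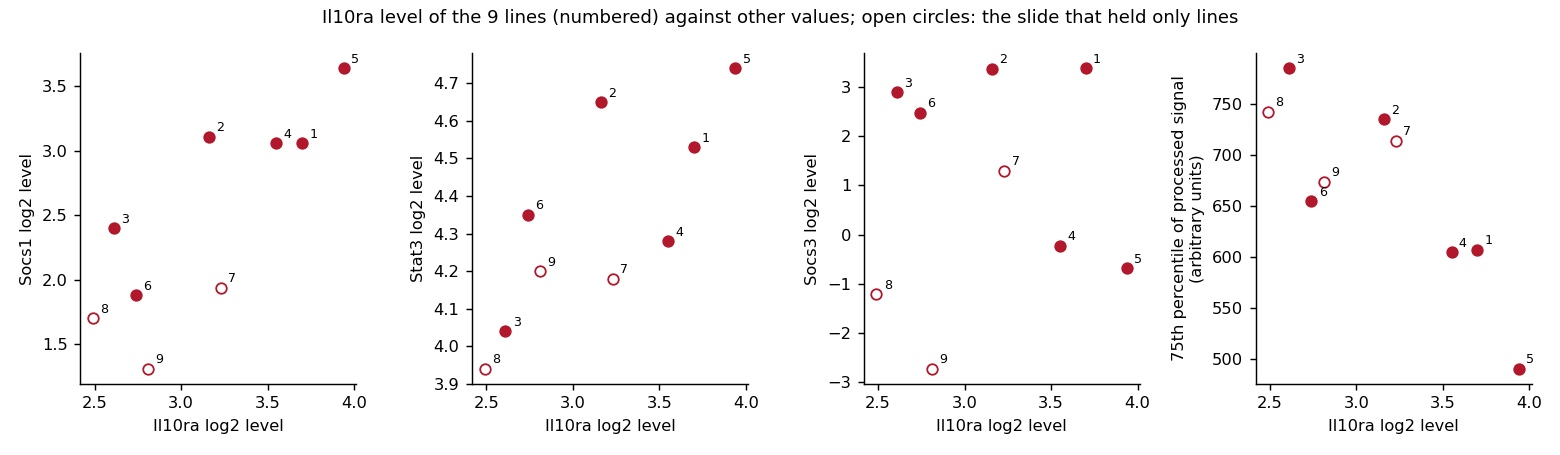
Log2 level of Il10ra (x axes) against the log2 levels of Socs1, Stat3 and Socs3 and against the 75th percentile of the processed signal (arbitrary units) in the 9 numbered lymphoma lines, with open circles for the 3 lines of the slide without spleens. Socs1 and Stat3 run upwards (r = 0.809 and 0.771), Socs3 shows no trend (r = 0.071), and the 75th percentile runs downwards (r = -0.819).

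The rest of the pathway was described with a list of 72 genes, of which 66 were tested and 6 (Il22ra2, Osmr, Ghr, Il2, Il7 and Il21) were too dim. In the lines 16 of the 66 were higher and 34 lower than in KO spleens, where 41.5% of all genes were higher and 28.9% lower, with a median of -0.40 against 0.18 for all genes. Against WT spleens, where 40.4% of all genes were higher and 30.9% lower, the counts were also 16 and 34, with a median of -0.62 against 0.14 for all genes. With arrays centred on their medians the split was 27 higher and 27 lower against KO spleens and 28 and 28 against WT spleens. With that centring the median of all genes was 0.77 and 0.71. Of the 13743 genes, 11040 were then called against KO spleens, 76.4% of them higher, and 11016 against WT spleens, 75.1% of them higher. The shares of all genes given above are those without this centring.

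Of the 26 tested receptors 16 were lower and 5 higher than in KO spleens, against 28.9% of all genes lower and 41.5% higher. Csf3r, the neutrophil growth factor receptor, was well above background in 0 of 9 lines and at least 109-fold lower than in KO spleens (adjusted p = 1.01e-15). Il13ra1, a second partner of the interleukin-4 receptor chain, was well above background in 1 of 9 lines (-6.19 ± 0.40), and Il7r, the interleukin-7 receptor, in 3 of 9 (-5.38 ± 0.86). The size of both rests on lines not well above background, and after normexp background correction it was -1.83 for Il13ra1 and -2.23 for Il7r. Neutrophil markers, whose summed level on the log2 scale was -4.56 to 0.56 in the lines against 7.90 to 9.58 in KO spleens, and macrophage markers, at -1.68 to 4.12 against 6.15 to 7.08, moved with these receptors, and their part in the result was not tested. The largest increases were Il2ra (2.17 ± 0.20), the inducible chain of the interleukin-2 receptor, Csf2rb (1.22 ± 0.21), the shared chain of the interleukin-3, interleukin-5 and GM-CSF receptors, and Il6ra (1.002 ± 0.194). Il2ra was dim in KO spleens, at -6.60 to -5.71, where the dimmest probes well above background on each array stood at -7.22 to -6.42. It was well above background in all 6 KO spleens and in 6 of 7 WT spleens.

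All 4 kinases were called against KO spleens, in both directions, where 41.5% of all genes were called higher and 28.9% lower. Jak1 (-0.89 ± 0.10, adjusted p = 9.19e-08) and Jak2 (-0.92 ± 0.12, adjusted p = 7.30e-07) were lower. Jak3, the lymphoid kinase that binds the common gamma chain (0.94 ± 0.23, adjusted p = 0.00107), and Tyk2 (0.56 ± 0.14, adjusted p = 0.000948) were higher. These directions were the same with arrays centred on their medians (-0.31, -0.34, 1.53 and 1.15) and with quantile normalisation. Tyk2 was not called against WT spleens (0.29 ± 0.13, adjusted p = 0.0543). Of the other STATs, Stat4 (-1.62 ± 0.48), the STAT of interleukin-12, Stat5b and Stat2 (-0.34 ± 0.13) were lower, though Stat2 was 0.24 and not called with arrays centred on their medians.

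Of the other 15 inhibitors 5 were higher and 5 lower than in KO spleens, against 41.5% of all genes higher and 28.9% lower. Socs2, which dampens growth hormone signals, was 2.23 ± 0.58 higher (adjusted p = 0.00180) and, like Socs3, spread widely, from -2.65 in line 5 and -0.94 in line 4 to 2.64 in line 6, with an SD of 1.77. The tyrosine phosphatase Ptpn2, which dephosphorylates JAK1 and STATs, was higher by 1.90 ± 0.16, and Socs7 by 1.29 ± 0.18. Cish, a classical STAT5 target, was lower by -2.25 ± 0.26, Socs5 by -1.75 ± 0.13 and the phosphatase Ptpn6 by -0.80 ± 0.20, the last not called with arrays centred on their medians (adjusted p = 0.390).

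Of 10 genes often read as STAT targets 3 were higher and 5 lower in the lines than in KO spleens, where 41.5% of all genes were higher and 28.9% lower. Batf (2.42 ± 0.15) and Bcl6 (1.77 ± 0.31), transcription factors of activated and germinal centre B cells, and Bcl3 (1.90 ± 0.16), a nuclear partner of NF-kB, were higher. Fcer2a, the low-affinity IgE receptor that interleukin-4 induces, was lower (-10.62 ± 0.36, or -6.19 after normexp), a size that rests on 8 of 9 lines that were not well above background. Myc (-2.70 ± 0.18) and Junb (-2.34 ± 0.25) were lower. Of the 6 tested ligands 1, Il10, was higher and 2 were lower, namely Ifng (-8.84 ± 0.52, well above background in 7 of 9 lines) and Il6 (-6.96 ± 0.35, in 1 of 9). After normexp Il6 was -2.57 and Ifng was -6.86. NK cell markers, at -3.16 to 1.35 in the lines against 5.52 to 6.23 in KO spleens, moved with Ifng, and their part in it was not tested.

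**Figure D5:**
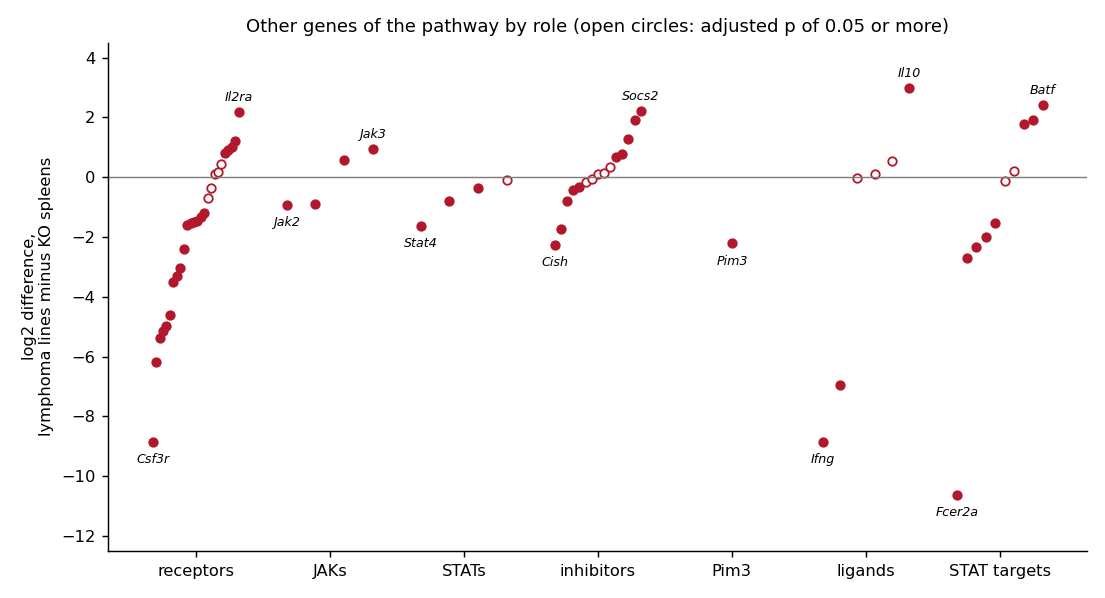
Log2 difference, lymphoma lines minus KO spleens (y axis), of the 66 tested genes of the wider pathway by role (x axis), with open circles for an adjusted p of 0.05 or more and names at the lowest and highest gene of each role where it was called. Receptors extend far downwards, to Csf3r, which no line had well above background, while the JAKs and the inhibitors lie on both sides of 0.

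Between KO and WT spleens 6 of the 66 were called, where 1.66% of all genes were called higher and 2.16% lower in KO spleens. Il6 (1.82 ± 0.30, adjusted p = 0.00723), Il10 (1.30 ± 0.19, adjusted p = 0.00509), Il9r (0.87 ± 0.19, adjusted p = 0.0264), Prdm1 (0.77 ± 0.15, adjusted p = 0.0145), the plasma cell factor, and Cd274 (0.72 ± 0.10, adjusted p = 0.00396), the PD-1 ligand, were higher in KO spleens. Il2rb, a receptor chain of NK and T cells, was lower (-0.60 ± 0.13, adjusted p = 0.0264). NK cell markers, of which 4 of 7 were also lower in KO spleens, summed to 5.52 to 6.23 on the log2 scale in KO spleens and 6.07 to 6.58 in WT spleens, and their part in the Il2rb difference was not tested. Prdm1 and Il2rb were not called with the slide as a block (adjusted p = 0.0605 and 0.0879), nor Il2rb with arrays centred on their medians (adjusted p = 0.0556), and none of the 6 was called after another background correction, normexp, with which 3 of all genes were called between the spleens.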

How the data were processed

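RNA of 22 samples was measured on 23 arrays. In the deposited scanner files the unit is the intensity of a spot, background-subtracted and corrected by Agilent Feature Extraction (version 10.7.1.1, per the file headers). The authors' deposited value table holds log2 values and served as an alternative. Each of its 41174 probes had a median of 0, its column medians were -0.2066 to 0.5222, and after the same centring the scanner values matched it in scale and direction (correlation 0.9996 to 1 per array). The members and lists were chosen with earlier results of these data known.

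From each array 1639 control spots and, over all arrays, 1556 outlying spots were left out of 43379 others per array, none for saturation (0). Each signal was divided by the array's 75th percentile and taken to log2, and spots of a probe were averaged. RefSeq accessions (GRCm38.p6) named 26690 of the 41174 probes. A gene was tested if a probe was well above background in at least 6 samples, and the brightest such probe on average stood for it. The arrays of line 8 were averaged.

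The 3 groups were compared in a single limma fit (version 3.58.1, R 4.3.3), and KO with WT spleens in the 13 spleens with sex as a term. Benjamini-Hochberg adjustment covered all 13743 genes, with a threshold of 0.05. Where no line had a gene well above background, the dimmest probe that passed on each line's array set a floor, and the fold is a lower bound. Relations across lines used exact permutation (scipy 1.17.1). The scripts were tested on simulated data. Named genes are all members, the 3 called pathway genes with the largest change per role and direction against KO spleens, each called pathway gene between spleens, the 4 JAKs, Stat5b, Pim3, Il10 and Il10rb, and the 5 genes most like Il10ra. A gene of the pathway list is not reported here by name. The scanner's mean signal was not used here, so the normexp alternative took its median signal, with an offset of 50. The number of arrays limits the precision.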

Additional observations from a re-analysis of the deposited data

How the results depend on the processing

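Alternatives were median centring, quantile normalisation, normexp, no filter on dim probes, the deposited value table, slide as a block, each sample left out, line 8 by either array, no lines of the slide without spleens, differences within slides, no sex term and female spleens only. Added after the data were seen were both arrays of line 8 as 2 samples, the mean of lines 4 and 5 as 1 sample, and relations without scaling. Pim2, Il4ra, Il10ra and Socs3 kept their direction and their calls against both groups of spleens under every one of them that was tested. Pim1 kept its call against KO spleens. Direction turned for Stat6 against KO spleens with median centring (0.21), for Stat3 (-0.0044) and Il21r (-0.0283) against WT spleens with quantile normalisation, and for Pim1 against WT spleens within slide 3 (0.0339, not tested) and Il21r within slide 6 (-0.12, not tested). The median difference of all genes was 0.77 with median centring against KO spleens, in place of 0.18, and 0.71 against WT spleens, in place of 0.14. Its share of higher calls was 76.4% in place of 59.0% against KO spleens, and 75.1% in place of 56.7% against WT spleens. The causes were not tested.

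With a sample left out, 8 to 10 members were called against KO spleens, 7 to 8 against WT spleens and 0 to 1 between spleens. Quantile normalisation called 6 members against KO spleens and normexp 6, in place of 9. Over all genes quantile normalisation called 9681 and normexp 6920, where the main fit called 9681. Between KO and WT spleens quantile normalisation called 1 member and omission of the sex term 2, against 0. Quantile normalisation called 10 pathway genes and normexp 0 (10 of 66 at an unadjusted p below 0.05 by limma), against 6. The share of all genes at that unadjusted level is not given here. Over all genes 525 were called between spleens, 329 with median centring, 254 with slide as a block, 3 with normexp and 1431 without the sex term. With a spleen left out the count was 122 to 778, and it moved by over 1.5 times without WT spleens 5 (168), 6 (122) and 7 (195) or KO spleen 1 (313). Small uncalled differences between spleens changed sign: Stat3 without the sex term (-0.1074) and, with a sample left out, between -0.0932 and 0.2307; Socs1 with normexp (0.0956) and slide as a block (0.0333); Il21r with normexp (0.0694), slide as a block (0.1015) and, with a sample left out, between -0.2014 and 0.0159. The relation of Stat3 to Il10ra passed adjustment with normexp (1 relation, r = 0.832, adjusted p = 0.0482). No paired analysis was possible because the labels give lines and spleens no shared replicate numbers, the numbers used here being only an order.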
